A study of Rattus norvegicus with 8 samples.

Results

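Apoe, Mbp, Pmp22, Sox10, S100b, Erbb3, Fabp7 and Sparcl1 are 8 marker genes of the glia of peripheral ganglia, the Schwann cells and satellite cells. They were taken by symbol from the 17381 genes measured in RNA of rat dorsal root ganglion cultures, and all 8 were found. The neurons came from embryos at day 15 and grew for 7 days in microfluidic chambers, devices whose fine channels let axons, but not cell bodies, pass to a separate side. The 4 groups, with 2 libraries each, were axonal RNA with shPum2, axonal RNA with shControl, somatic RNA with shPum2 and somatic RNA with shControl. Per the labels, each hairpin RNA was delivered by a lentivirus at plating, against Pum2, a Pumilio RNA-binding protein, or as a control. The labels give no strain, no sex and no step that removes glia, and they name cell bodies and axons together as what the somatic RNA came from. They do not say that replicates were separate cultures, so p-values measure the spread between these libraries, which may be technical. Since axonal RNA went through an ultra-low input kit and somatic RNA through a standard one, an effect of the kit and one of the compartment cannot be told apart.

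Schwann cells and satellite glia arise from neural crest cells, and Sox10 is the transcription factor that this lineage needs. Sox10 is known to act on the genes of the receptor Erbb3 and of several myelin proteins. Erbb3 pairs with Erbb2 and binds neuregulin 1, a growth factor that sensory axons display to the Schwann cells along them. Fabp7, a fatty acid binding protein, and S100b, a calcium-binding protein, mark young and maturing glia. Pmp22 and Mbp are proteins of peripheral myelin, Pmp22 spanning its membranes and Mbp joining their inner faces. Apoe carries lipids out of glia and is also made by macrophages, and Sparcl1 is a secreted matrix protein of the SPARC family.

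The gene starts are shown because Sox10 binds DNA at short ACAA-type sequences, and the printed stretches show where such letters stand in genes of its own lineage. RefSeq promoters of assembly GRCr8 were at hand for 6 of the 8 genes, and those of Sox10 and Erbb3 were not analysed here. The 4 genes with 1 listed start are printed, 250 bases before it, 5′ to 3′ along the gene. Capitals mark ACAANG on either strand, where N is any base.
Sparcl1 (chr14:5937234-5937483, plus strand): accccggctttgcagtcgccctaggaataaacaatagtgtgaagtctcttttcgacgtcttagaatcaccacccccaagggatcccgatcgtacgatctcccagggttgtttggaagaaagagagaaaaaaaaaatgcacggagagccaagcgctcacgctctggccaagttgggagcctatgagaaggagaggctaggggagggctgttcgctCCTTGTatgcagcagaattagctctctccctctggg
Fabp7 (chr20:37669356-37669605, plus strand): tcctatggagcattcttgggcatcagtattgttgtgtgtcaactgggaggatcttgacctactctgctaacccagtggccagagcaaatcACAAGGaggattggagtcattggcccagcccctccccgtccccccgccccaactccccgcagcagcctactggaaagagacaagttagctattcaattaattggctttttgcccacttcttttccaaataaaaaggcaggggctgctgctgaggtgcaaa
Pmp22 (chr10:48294682-48294931, plus strand): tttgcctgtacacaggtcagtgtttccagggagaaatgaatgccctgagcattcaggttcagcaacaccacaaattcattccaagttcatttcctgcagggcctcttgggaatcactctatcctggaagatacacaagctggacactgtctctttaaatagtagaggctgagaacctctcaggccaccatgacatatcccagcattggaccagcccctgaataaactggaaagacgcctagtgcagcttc
S100b (chr20:12381082-12381331, minus strand): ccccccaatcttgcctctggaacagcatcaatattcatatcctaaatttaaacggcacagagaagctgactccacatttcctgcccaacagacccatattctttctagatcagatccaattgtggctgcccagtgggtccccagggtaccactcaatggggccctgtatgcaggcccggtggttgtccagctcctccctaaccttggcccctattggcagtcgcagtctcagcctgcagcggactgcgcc
Fabp7 and Sparcl1 held 1 such match each, 160 and 36 bases before the start, and Pmp22 and S100b held 0. Of the 9 starts listed for the 6 genes, 5 held it. Of all 33469 promoters, 36.9% held it in a window of this length, so the match is a description of letters and no sign of binding.

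Libraries held 11641947 to 16131611 counts in axonal and 16725877 to 25821766 in somatic RNA, with 9542 to 10732 and 14040 to 14265 genes at 1 count or more. CPM are counts scaled to the same total in every library, and TPM are the deposited values, which are also scaled to transcript length. Pum2 was at 38.2 and 36.5 CPM in somatic shPum2 libraries, against 164 and 160 CPM in somatic shControl libraries. In axonal RNA it was at 1.46 and 7.07 CPM with shPum2 and at 3.25 and 0.443 CPM with shControl, so lower Pum2 was seen in somatic RNA alone. Across genes above a mean of 1 CPM, the median log2 difference between the replicates of a group was 1.63 and 1.70 in axonal RNA with shPum2 and shControl, against 0.172 and 0.126 in somatic RNA. A list of 17 neuron genes summed to between 32950 and 38440 CPM in the somatic libraries, with none at 0.

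Per transcript length, Apoe stood far above the other markers of glia in somatic RNA. It reached 2355 and 576 TPM with shPum2 and 1169 and 628 TPM with shControl. Apoe took rank 29 and 276 among all genes of the somatic shPum2 libraries and rank 110 and 244 in those with shControl. Pmp22 came next, at 49.5 and 28.2 TPM with shPum2 and 36.9 and 19.2 TPM with shControl. Fabp7 and Sparcl1 followed, between 4.92 and 21.0 TPM, and Mbp lay between 3.84 and 5.998 TPM. The lineage regulator Sox10, S100b and Erbb3 were the lowest by their means, between 0.529 and 6.05 TPM in the 4 somatic libraries. By mean TPM the order with shPum2 was Apoe, Pmp22, Fabp7, Sparcl1, Mbp, Sox10, S100b and Erbb3, and with shControl Sparcl1 stood before Fabp7. Of the 7 neighbouring pairs in that order, 3 were separated in every library with shPum2 and 4 with shControl. Sox10 and S100b, and Sparcl1 with the gene next below it, were among the pairs that overlapped in each of these groups.

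**Figure D1:**
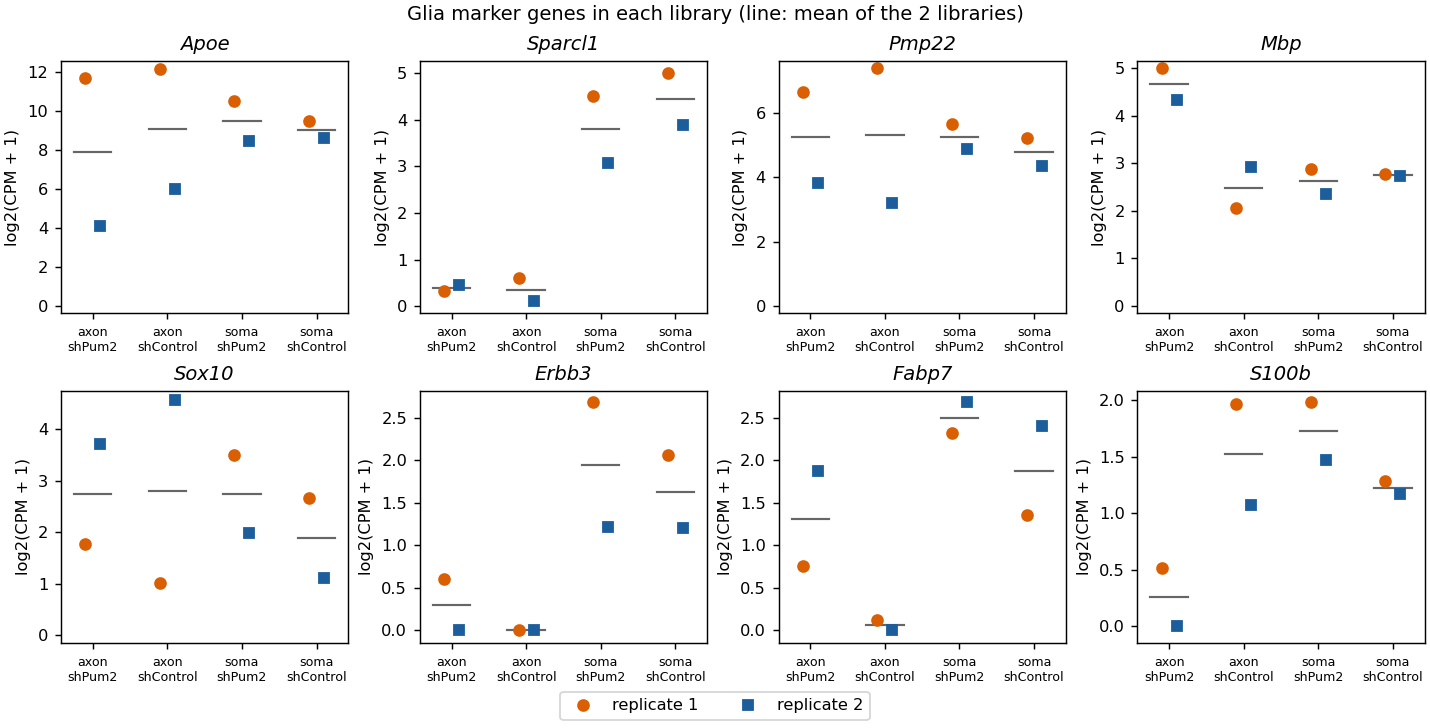
Level of each glia marker gene in every library, as log2(CPM + 1) on the vertical axis, with the 4 groups along the horizontal axis, circles for replicate 1, squares for replicate 2 and a line at the mean of 2 libraries. Apoe and Pmp22 lie high in replicate 1 and low in replicate 2 of both axonal groups, Sox10 the other way round, and Sparcl1 is near 0 in all 4 axonal libraries.

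The somatic comparison asks whether RNA of the glia changed in the compartment of the cell bodies when Pum2 was reduced. None of the 8 markers passed the threshold, an adjusted p of 0.05 in edgeR's quasi-likelihood test with Benjamini-Hochberg adjustment over 12348 genes, and 0 of the 8 had an unadjusted p below it in this fit, which has no replicate block. DESeq2 and limma voom also called 0 of the 8. In this comparison 0.0081% of genes passed, which was Pum2 alone, and 74 genes had an unadjusted p below 0.05. The fitted log2 differences were positive for 6 of the 8 and for 52.7% of all genes tested, with medians of 0.62 and 0.01. All 8 had an adjusted p of 0.9997 (edgeR, Benjamini-Hochberg).

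Sox10 was at 10.4 and 2.98 CPM with shPum2, against 5.38 and 1.17 CPM with shControl. Its log2 difference of 1.02 had an SE of 0.90, and the 4 libraries interleaved. Erbb3, the neuregulin receptor, had 5.41 and 1.32 CPM with shPum2 and 3.17 and 1.29 CPM with shControl, a log2 difference of 0.57 ± 0.80 (SE). For both genes the higher library of each hairpin was replicate 1. Without replicate 1 of shPum2 the difference of Sox10 was -0.07 and that of Erbb3 -0.71, where replicate 2 of shPum2 alone is set against shControl libraries that still hold their higher replicate 1.

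S100b was the member whose somatic libraries did not overlap. It had 2.96 and 1.78 CPM with shPum2 and 1.43 and 1.25 CPM with shControl, which are 63, 46, 24 and 29 counts. The log2 difference was 0.80 ± 0.40 (SE). Such a separation was seen in 1 of 8 members and in 24.5% of all genes tested, so it is no result about the markers. Fabp7 had 3.999 and 5.42 CPM with shPum2 and 1.55 and 4.27 CPM with shControl, a log2 difference of 0.67 ± 0.56 (SE). Fabp7 was the only member of the 8 that was higher in replicate 2 of both somatic groups.

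The myelin protein genes had the smallest fitted differences of the 8. Pmp22 had 48.9 and 28.2 CPM with shPum2 and 36.4 and 19.2 CPM with shControl, and its log2 difference was 0.46 ± 0.38 (SE). Mbp was the steadiest of the 8 by its fitted difference, at 6.40 and 4.14 CPM with shPum2 and 5.86 and 5.61 CPM with shControl. Its log2 difference was -0.14 ± 0.28 (SE). The secreted proteins went to opposite sides, with overlapping libraries in both cases. Apoe had 1423 and 352 CPM with shPum2 and 706 and 385 CPM with shControl, a log2 difference of 0.68 ± 0.68 (SE) that was -0.60 without replicate 1 of shPum2. Sparcl1 had 21.9 and 7.47 CPM with shPum2 and 31.4 and 13.9 CPM with shControl, a log2 difference of -0.64 ± 0.61 (SE).

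The somatic library that stood highest was the same for most of the 8 genes. Replicate 1 of shPum2 held the highest somatic level of Apoe, Mbp, Pmp22, Sox10, S100b and Erbb3, 6 of the 8, as it did for 40.3% of 11591 genes with a somatic mean of at least 1 CPM. The summed fibroblast and macrophage lists were highest there too, and the summed neuron list was lowest. The 15 fibroblast genes found of 18 listed summed to 11150 and 2838 CPM with shPum2 and to 4927 and 2867 CPM with shControl, with none at 0. The 15 macrophage genes summed to 349 and 85.3 CPM with shPum2 and to 154 and 98.6 CPM with shControl, with none at 0, and the 17 neuron genes to 32950 and 38220 CPM with shPum2 and 38190 and 38440 CPM with shControl. The fitted log2 differences were positive for 13 of 15 fibroblast genes, 13 of 14 macrophage genes and 15 of 15 cell division genes tested, against 52.7% of all genes. Medians of these lists were 0.74, 0.75 and 0.73, and none of their genes passed. The part of these cells in the levels of the 8 genes was not tested, and in such RNA fewer cells of a type and less RNA per cell cannot be told apart.

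The genes that go with these markers in the same lineage leaned the same way in part, and none passed. Over all genes tested in somatic RNA 52.7% were positive. Of 20 listed myelin genes 13 were tested in somatic RNA, with 10 positive, 3 negative and a median log2 difference of 0.32. Of 20 satellite glia and Schwann precursor genes, a list that holds Fabp7, 17 were tested, with 13 positive and a median of 0.54. Gja1, a gap junction protein of satellite glia and also of fibroblasts, had 204 and 41.5 CPM with shPum2 and 84.8 and 41.4 CPM with shControl. Of 23 genes of the neuregulin and ErbB pathway 19 were tested, with 12 positive and a median of 0.02. Nrg1, the ligand read by Erbb3 and chosen after its values were seen, had 112 and 113 CPM with shPum2 and 124 and 118 CPM with shControl. None of the 18 listed transcription factors of the lineage, Sox10 among them, passed either, with 11 of 16 tested positive.

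**Figure D2:**
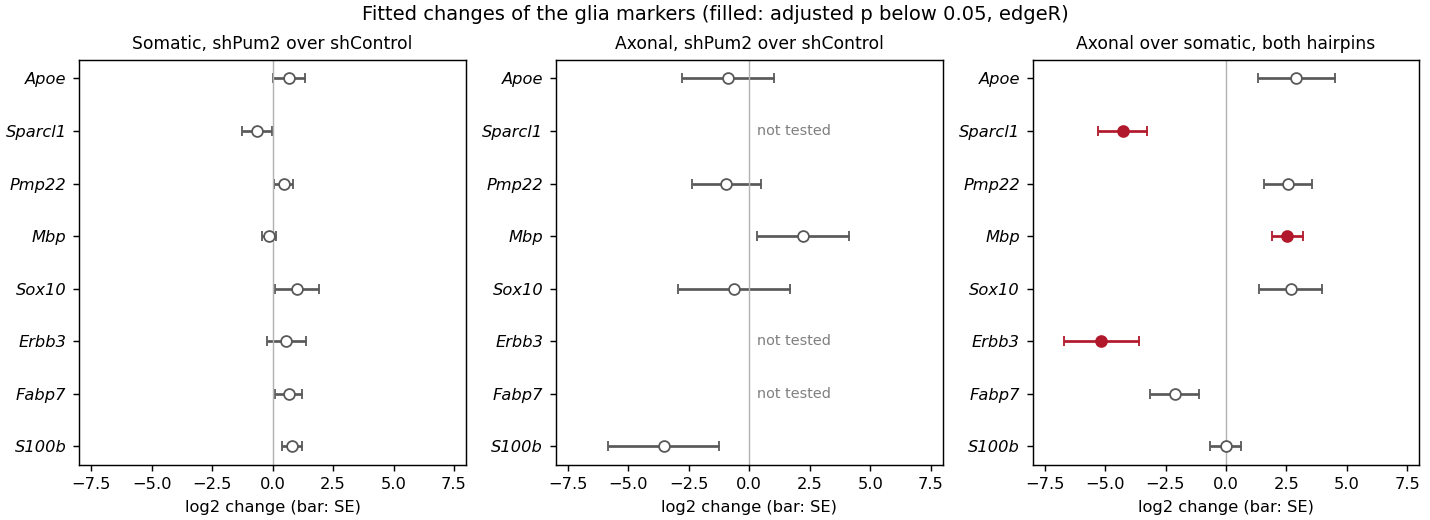
Fitted log2 changes with their SE for the 8 glia markers in somatic RNA (shPum2 over shControl), axonal RNA (shPum2 over shControl) and axonal over somatic RNA, filled where the adjusted p was below 0.05. Filled points appear only in the right panel, for Sparcl1, Mbp and Erbb3, and the axonal bars are wider than the somatic ones.

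The axonal comparison asks the same question of RNA from the axon compartment. Of the 8 genes 5 passed the filter on low counts and were tested among 8519, and none was called. In this comparison 0% of genes were called by edgeR, 256 had an unadjusted p below 0.05, none of them a member, and DESeq2 called 157 genes with 0 members. Each of the 5 members had an adjusted p of 0.9993 (edgeR, Benjamini-Hochberg). Their log2 differences were positive for 1 and negative for 4, with a median of -0.88 against -0.05 over all genes tested, of which 48.2% were positive.

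Apoe spanned the widest range. With shPum2 its axonal libraries held 3252 and 16.2 CPM, and with shControl 4506 and 63.4 CPM. The 2 libraries of a hairpin thus differed 200-fold with shPum2 and 71.1-fold with shControl, and the hairpins overlapped. Among 8965 axonal genes with a mean of at least 1 CPM, 0.0892% differed as much between the shPum2 replicates, and 0.749% of 8549 did so between those of shControl. The log2 difference between hairpins was -0.88 ± 1.89 (SE). Leaving out replicate 1 of shControl gave 4.31, and leaving out replicate 2 of shPum2 gave 0.083. Without replicate 1 of shPum2 it was -6.99, with a lone shPum2 library set against shControl libraries that differed 71.1-fold. A lone library gives no spread of its own, so no p-value of that fit is given.

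Pmp22 was high in replicate 1 and low in replicate 2 of each hairpin, as Apoe was. It had 99.7 and 13.1 CPM with shPum2 and 167 and 8.20 CPM with shControl, a log2 difference of -0.96 ± 1.43 (SE). Across the 8 libraries the log2 CPM of Apoe and Pmp22 correlated at r = 0.913, a description over libraries that share compartment and kit. Both genes lay above every somatic library in replicate 1 of each hairpin and below every somatic library in replicate 2, a pattern of 2.58% of 9711 axonal genes. That pattern was worded from the values of these genes, so its share is no measure of rarity. Both axonal replicates 1 lay above both axonal replicates 2 in 25.8% of the 9711 genes.

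Sox10 ran the other way. It had 2.41 and 12.1 CPM with shPum2 and 1.03 and 22.8 CPM with shControl, or 28, 195, 12 and 308 counts. Replicate 2 of each hairpin lay above all 4 somatic libraries and replicate 1 did not, which held for 1.22% of the 9711 genes. That pattern was worded from the values of Sox10, so its share is no measure of rarity. Both axonal replicates 2 lay above both axonal replicates 1 in 10.9% of the 9711 genes. The log2 difference between hairpins was -0.63 ± 2.33 (SE), and it was 2.89 without replicate 2 of shControl. The receptor Erbb3, on which Sox10 is known to act, had 6 counts in replicate 1 of shPum2 and 0 in the other 3 axonal libraries. A count of 0 allows up to 0.186 CPM in replicate 2 of shPum2, and 0.257 and 0.222 CPM in the shControl libraries. Where Sox10 was highest, Erbb3 was therefore not detected.

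Mbp and S100b were the tested members with separate axonal groups, 2 of 5 where 27.8% of the genes tested were separate. Mbp had 31.0 and 19.2 CPM with shPum2 and 3.17 and 6.58 CPM with shControl. Its log2 difference was 2.21 ± 1.91 (SE). S100b had 0.429 and 0 CPM with shPum2 and 2.91 and 1.11 CPM with shControl, which are 5, 0, 34 and 15 counts, and its log2 difference was -3.54 ± 2.30 (SE). With 1 of the 4 axonal libraries left out the difference lay between 1.84 and 2.80 for Mbp and between -7.74 and -2.61 for S100b, a sign that the separate groups fix.

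Erbb3, Fabp7 and Sparcl1 were below the filter and were not among the genes tested. In a fit with no filter each of the 3 had an adjusted p of 0.9997, and with all 8 libraries in a single fit the adjusted p was 0.389 for Erbb3, 0.296 for Fabp7 and 1 for Sparcl1 (edgeR, Benjamini-Hochberg). Fabp7 had 8 and 43 counts with shPum2 and 1 and 0 with shControl, a ratio of the pooled shares of 46.3 with an exact 95% interval from 7.95 to 1860 that covers counting error alone. Replicate 2 of shPum2 held 43 of the 51 counts with shPum2, a spread between libraries that this interval leaves out. Sparcl1 had 3 and 6 counts with shPum2 and 6 and 1 with shControl, a ratio of 1.17 with an interval from 0.387 to 3.69. The authors' deposited table of the axonal comparison gives log2 fold changes of 2.03 for Mbp with an adjusted p of 0.680, 3.22 for Fabp7 and -2.43 for S100b, the last pair with no adjusted p. In it 357 of 8858 genes with an adjusted p, or 4.03%, were below 0.05, none of them a member. The authors' deposited table of the somatic comparison gives values between -0.10 for Sparcl1 and 0.13 for Pmp22, each with an adjusted p of 0.9999. That table has 2 of 14955 genes, or 0.0134%, below 0.05. Its standard errors reach 0.1185 at most over all genes, so its somatic fold changes lie on a narrower scale than those fitted here.

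**Figure D3:**
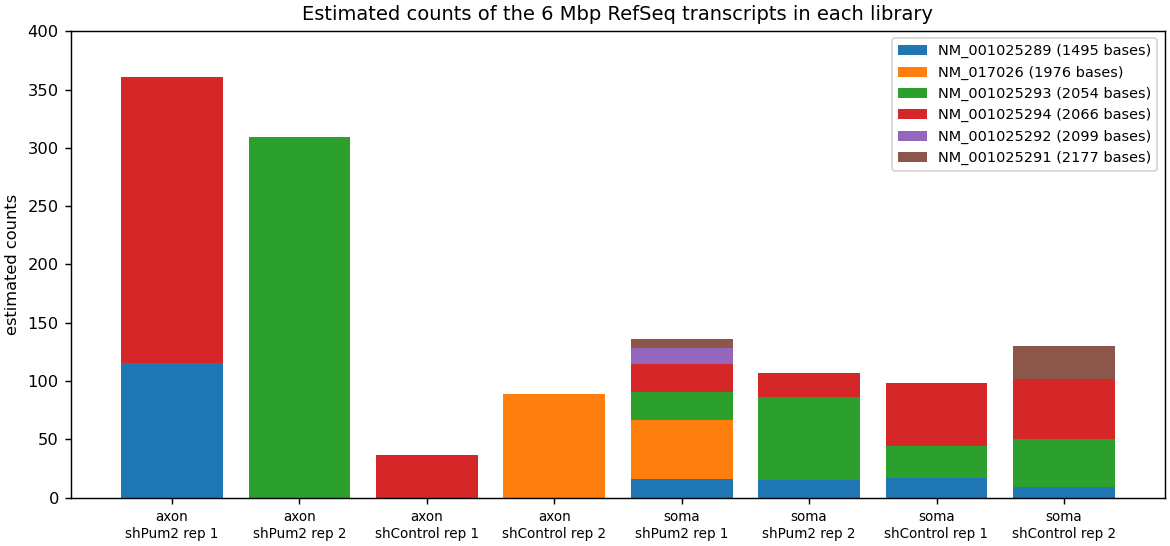
Estimated counts of Mbp in each library, stacked by the 6 RefSeq transcripts listed for the gene, with libraries along the horizontal axis. Axonal counts belong to 1 or 2 transcripts in each library, somatic counts to 3 to 6.

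The gene for Mbp had 6 RefSeq transcripts in the files, of 1495 to 2177 bases, and its axonal counts came from a different set in each library. In replicate 1 of axonal shPum2, NM_001025294 held 68.0% of the estimated counts of the gene and NM_001025289 held 32.0%. In replicate 2 of axonal shPum2, NM_001025293 held 100% of 309 counts. In the axonal shControl libraries NM_001025294 held 100% of 37 counts and NM_017026 held 100% of 89. Somatic counts were spread over more forms, NM_001025294 holding 17.6% and 19.2% with shPum2 and 54.4% and 39.6% with shControl. The forms share most of their sequence, so the split rests on the estimate of the authors' tool. Apoe had 5 transcripts, and NM_138828 held between 89.7% and 100% of its estimated counts in each of the 8 libraries. The other 6 members had 1 transcript each.

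The comparison of compartments asks which of the marker RNAs were found in axonal relative to somatic libraries, over both hairpins. Sparcl1 and Erbb3 were lower in axonal RNA and Mbp was higher, 3 of 8 members called. Over all 12339 genes tested 40.2% were called, 13.7% as higher and 26.5% as lower, so the share among the markers is close to the background and is no result about them. The median log2 change over all genes was -0.999, with 36.5% positive. That of the 8 members was 1.26, with 4 positive and 4 negative, a midpoint between -0.018 for S100b and 2.54 for Mbp. These changes are scaled by TMM, whose factors were 0.478 to 0.754 in axonal and 1.66 to 1.80 in somatic libraries. The median of all genes was -0.77 with DESeq2's size factors and -2.47 with total counts alone.

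Sparcl1 was nearly absent from axonal RNA. It had 0.258 and 0.372 CPM in axonal shPum2, 0.513 and 0.0739 CPM in axonal shControl, 21.9 and 7.47 CPM in somatic shPum2 and 31.4 and 13.9 CPM in somatic shControl libraries. Its pooled share was 57.3-fold lower in axonal RNA, with an exact 95% interval from 35.2 to 101 for counting error. This is a share of total counts, while the fitted log2 change is scaled by TMM, so they differ in scale. The log2 change of Sparcl1 was -4.27 ± 1.02 (SE; adjusted p = 0.0162, edgeR, Benjamini-Hochberg). All 4 axonal libraries lay below all 4 somatic ones. With 1 library left out the adjusted p of Sparcl1 lay between 0.0126 and 0.0766 and missed the threshold without either somatic shControl library or replicate 1 of somatic shPum2.

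Erbb3 had 6 counts in axonal RNA and 232 in somatic RNA, a pooled share 23.6-fold lower with an interval from 10.7 to 64.9. As for Sparcl1, this share of total counts and the log2 change scaled by TMM differ in scale. The log2 change of Erbb3 was -5.15 ± 1.54 (SE; adjusted p = 0.0442, edgeR, Benjamini-Hochberg). It also lay below every somatic library in all 4 axonal libraries, and Sparcl1 and Erbb3 were 2 of 8 members that did so, against 58.4% of all genes tested. None of the 8 lay above every somatic library in all 4 axonal ones, against 7.73% of genes, and 66.1% of genes were separate in either direction. The call for Erbb3 was lost in 7 of the 8 fits with a library left out, with an adjusted p between 0.0265 and 0.122 (edgeR, Benjamini-Hochberg). It held without replicate 1 of axonal shPum2, the library with its 6 counts.

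Mbp was at 31.0 and 19.2 CPM in axonal shPum2, 3.17 and 6.58 CPM in axonal shControl, 6.40 and 4.14 CPM in somatic shPum2 and 5.86 and 5.61 CPM in somatic shControl libraries. The log2 change of axonal over somatic RNA was 2.54 ± 0.65 (SE; adjusted p = 0.0209, edgeR, Benjamini-Hochberg). Its axonal shControl libraries lay on either side of the somatic ones. With total counts in place of TMM the change was 1.01 with an adjusted p of 0.208, and without any 1 of the 4 somatic libraries the adjusted p lay between 0.113 and 0.136 (edgeR, Benjamini-Hochberg).

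The other 5 members did not pass. Apoe had a log2 change of 2.90 ± 1.59 (SE), Pmp22 of 2.57 ± 0.998 (SE) and Sox10 of 2.67 ± 1.29 (SE), with adjusted p of 0.192, 0.0828 and 0.144 (edgeR, Benjamini-Hochberg). In each of these 3 genes the 4 axonal libraries spanned the somatic range on both sides. DESeq2 called these 3 as higher. With replicate 1 of axonal shPum2 left out the change of Apoe was -0.015, and with replicate 1 of axonal shControl left out it was 0.29. Pmp22 passed without replicate 2 of axonal shControl, at 3.02 (adjusted p = 0.0212, edgeR, Benjamini-Hochberg). Fabp7 had a log2 change of -2.12 ± 1.02 (SE) and S100b of -0.018 ± 0.65 (SE). Fabp7 passed as lower with total counts alone, at -3.70 (adjusted p = 0.0213), and without replicate 2 of axonal shPum2, at -3.05 (adjusted p = 0.0476, edgeR, Benjamini-Hochberg).

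Genes of the same lineage were as divided in axonal RNA. Of 12 myelin genes tested 3 were higher and 3 were lower, the lower ones being Prx, Ugt8 and Drp2. Cdh19, a cadherin of Schwann cell precursors, had 0 counts in all 4 axonal libraries, which allows up to 0.186 to 0.258 CPM, and between 2.09 and 2.75 CPM in somatic ones. Of 17 satellite glia and precursor genes tested, Fabp7 among them, 3 were higher and 2 lower. Of 19 genes of the ErbB pathway 0 were higher and 6 lower. Over all 12339 genes tested 13.7% were called as higher and 26.5% as lower, and the lists were not tested against these shares. Cdh19, Prx, Ugt8 and Drp2 were chosen for naming after their values were seen.

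**Figure D4:**
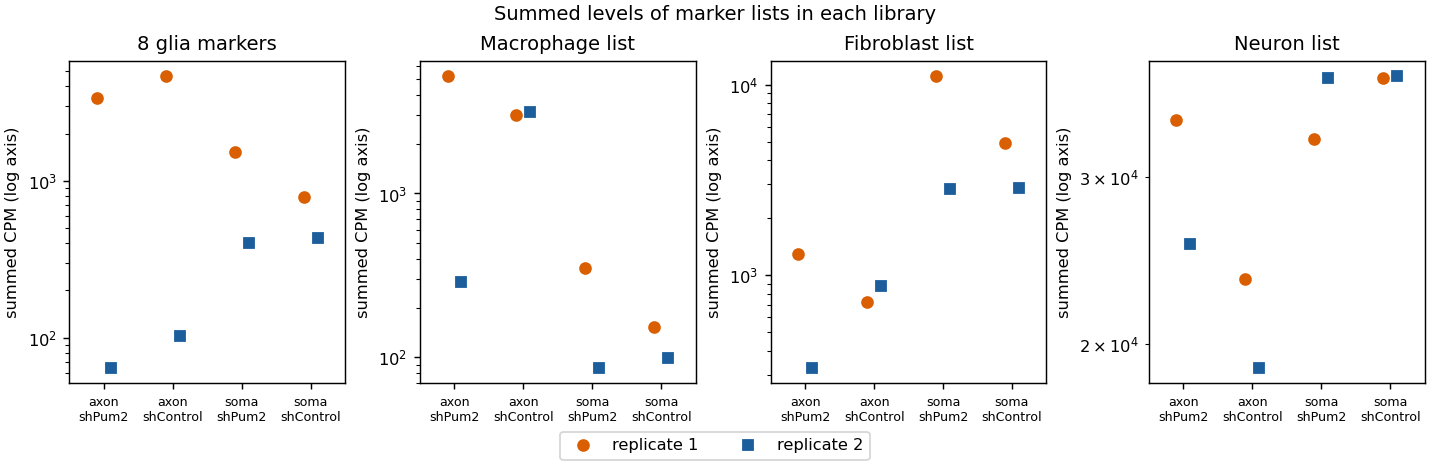
Summed CPM of the 8 glia markers and of 3 lists of other cell markers in every library, on log axes, with groups along the horizontal axis, circles for replicate 1 and squares for replicate 2. The sum of the glia markers, most of it Apoe, parts the replicates of both axonal groups, and the macrophage list is above every somatic library in 3 of 4 axonal libraries.

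Markers of macrophages moved with Apoe and Pmp22 in part. The 15 macrophage genes summed to 5241 and 288 CPM in axonal shPum2 and to 3007 and 3130 CPM in axonal shControl libraries, against 349 and 85.3 CPM in somatic shPum2 and 154 and 98.6 CPM in somatic shControl libraries. Of the 15, between 1 and 2 were at 0 in an axonal library, Cd74 in all 4. In the compartment comparison 9 of the 15 were higher and 1 lower, where 13.7% and 26.5% of all 12339 genes tested were. Both axonal replicates 1 lay above both axonal replicates 2 in 11 of the 15, as in Apoe and Pmp22 and in 25.8% of 9711 axonal genes with a mean of at least 1 CPM, and in 8 of 15 fibroblast genes. Lyz2, a lysozyme, was at 2061 and 172 CPM with shPum2 and 816 and 2190 CPM with shControl in axonal RNA, and was not among the 11. Csf1r, the receptor of a macrophage growth factor, and the complement gene C1qc, both chosen after their values were seen, were among the 11. Csf1r had 252 and 0.310 CPM with shPum2 and 153 and 0.296 CPM with shControl, and C1qc had 176 and 0.0620 CPM with shPum2 and 234 and 0.222 CPM with shControl. Others of the 11 parted far less with shControl. Cd68 had 554 and 13.6 CPM with shPum2 and 400 and 373 CPM with shControl. Tyrobp had 264 and 17.6 CPM with shPum2 and 251 and 158 CPM with shControl. The fibroblast list summed to 1285 and 323 CPM with shPum2 and to 725 and 871 CPM with shControl in axonal RNA, with 0 or 1 gene at 0 in each library. Their part in the axonal levels of Apoe and Pmp22 was not tested.

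Relatives of the markers were set beside them by family. Fabp5, a relative of Fabp7 found in many cells, had 1414 and 2623 CPM in axonal shPum2 and 1651 and 2289 CPM in axonal shControl, against 455 and 508 CPM in somatic shPum2 and 442 and 484 CPM in somatic shControl libraries. Of the 10 other S100 genes tested, 6 were higher and 0 lower in axonal RNA, with S100a10 at 1485 and 2200 CPM in axonal shPum2, 1772 and 1593 CPM in axonal shControl, 469 and 528 CPM in somatic shPum2 and 497 and 517 CPM in somatic shControl libraries. Of the 7 other SPARC family genes 0 were higher and 5 lower, as Sparcl1 was. Among 11 genes of lipid transport tested beside Apoe, 1 was higher and 2 were lower. Over all 12339 genes tested 13.7% were called as higher and 26.5% as lower, and no family was tested against these shares. Lpl, lipoprotein lipase, had 632 and 0.372 CPM in axonal shPum2, 102 and 21.4 CPM in axonal shControl, 10.3 and 2.01 CPM in somatic shPum2 and 4.90 and 2.59 CPM in somatic shControl libraries, with a log2 change of 6.29 (adjusted p = 0.0349, edgeR, Benjamini-Hochberg).

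The last test asks whether the effect of shPum2 differed between the compartments. None of the 8 members passed among 12339 genes, of which 0% were called by edgeR. At an unadjusted p below 0.05 there were 0 members and 964 genes, and DESeq2 called 0 members and 606 genes. The axonal minus somatic log2 effect was -4.38 for S100b with an SE of 1.84, 4.72 for Fabp7 with an SE of 2.04 and 2.41 for Mbp with an SE of 1.24, with adjusted p of 0.573, 0.573 and 0.584 (edgeR, Benjamini-Hochberg). For Apoe it was -1.58 ± 2.98 (SE). The somatic libraries, which vary less, share 1 estimate of the spread with the axonal ones in this fit.

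The genes whose levels ran most like each member over the 8 libraries were found by Pearson's r of log2(CPM + 1) among genes with a mean of at least 5 CPM. These are descriptions, with the compartments and library numbers shared by all genes. The choice hung in part on the measure. By Spearman's rank correlation the top 3 shared 1 gene with those named here for Apoe and for Mbp, and 0 for every other member. For Pmp22 that 0 rests on the order of ties. Slc37a2, named here for Pmp22, had a Spearman correlation of 1, which no other gene can exceed. Apoe was most like Ccdc134 (r = 0.992), Cxcl16 (0.988) and Sdcbp (0.987). Pmp22 was most like Irf5 (0.987), Slc37a2 (0.981) and Bambi (0.980), and Irf5 had 11.6 and 0 CPM in axonal shPum2 and 20.8 and 0.0739 CPM in axonal shControl libraries. Sox10 was most like Kif22 (0.928), Dcdc2 (0.914) and Brix1 (0.904). Mbp was most like Snrnp27 (0.978), Tspan4 (0.977) and Map4k1 (0.970). Erbb3 was most like Heph (0.990), Notch1 (0.987) and Adamts7 (0.982), and Sparcl1 was most like Col7a1 (0.987), Pcdh18 (0.985) and Nr1d2 (0.985). These 6 were all lower in every axonal than in every somatic library, as were 58.4% of the 12339 genes tested. Many other genes correlated with Sparcl1 almost as strongly as its 3. Fabp7 was most like Mthfd2 (0.967), Fbxo2 (0.948) and Oprk1 (0.946), and S100b was most like M6pr (0.965), Tmem123 (0.947) and Mylip (0.936). Fabp7, S100b and Erbb3 lie below this mean and could not be listed beside another member, and of the other 5 members none was. By r among themselves the members ranged from -0.826 for Mbp and S100b to 0.920 for Erbb3 and Sparcl1. Apoe and Pmp22 were at 0.913, Fabp7 and Sparcl1 at 0.664, and Apoe and S100b at 0.606. Sox10 was at -0.656 with Apoe and -0.000546 with Erbb3.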

How the data were processed

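RNA of 8 libraries was measured by sequencing, 2 per group. Kallisto, DESeq2 and the build Rnor_6.0 are named in the submitters' processing notes, without versions. Per the file headers, the deposited files hold estimated counts and TPM of 18321 RefSeq transcripts, 1 file for each library. The authors' 2 deposited comparison tables give a mean normalised signal, log2 fold changes, their standard errors and statistics (a score) and p-values, as their headers name them.

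Transcripts were named by a RefSeq table of assembly GRCr8 (94.7% matched, the rest holding 2.04% to 3.65% of counts), and the estimated counts of a gene were added up (17381 genes), then rounded. Tests used edgeR 4.0.16 in R 4.3.3, quasi-likelihood with TMM scaling and its expression filter, over all genes, with a threshold of 0.05. The SE was taken from the F statistic. Each knockdown comparison used the 4 libraries of its compartment, and the compartment comparison and the interaction used all 8. The fits were run on simulated counts. For every comparison with axonal libraries the simulated spread was smaller than the fitted one, so this run does not show what those tests could miss. Alternatives were DESeq2 1.42.0, limma 3.58.1 voom, other scalings, no filter, a replicate block, left-out libraries and other sets of libraries. A count of 0 was given a limit of 3 counts, and limits and intervals cover counting error alone. Up to 6 genes per list were named by mean CPM, and for each member the 3 genes most like it. The members and the 14 lists were chosen with earlier results of these data known. Values of some listed genes are not reported here.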

Additional observations from a re-analysis of the deposited data

Results flagged for a closer look

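S100b was the member whose libraries parted in opposite directions in the 2 compartments. It had 0.429 and 0 CPM in axonal shPum2 against 2.91 and 1.11 CPM in axonal shControl libraries, and 2.96 and 1.78 CPM in somatic shPum2 against 1.43 and 1.25 CPM in somatic shControl libraries. The interaction, axonal minus somatic, was -4.38 on the log2 scale with an adjusted p of 0.573 (edgeR, Benjamini-Hochberg), so a difference between the effects was not shown. Of 12339 genes tested, 3.44% had groups that parted in opposite directions in this way, 1.39% as S100b did, and S100b was 1 of 8 members. The axonal values rest on 5, 0, 34 and 15 counts.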

How the results depend on the processing

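With 2 libraries per group and low axonal counts, depth and replicate number limit every axonal value of Erbb3, Fabp7, Sparcl1 and S100b. In somatic RNA 0 members were called under any alternative, and the number of genes called, 1 here, was 2 with DESeq2, 0 with limma voom, 0 with all 8 libraries in a single fit and 0 to 1 with a library left out. In axonal RNA 0 members and 0 genes were called, and 6 genes without the filter, 157 with DESeq2 and 0 to 31 with a library left out, where 0 to 1 member was called. For axonal over somatic RNA 3 members and 4962 genes were called. DESeq2 called 6 members, the shPum2 libraries alone gave 1 member and 3043 genes, the shControl libraries alone gave 0 members, and leaving out a library gave 0 to 3 members and 3125 to 6753 genes. The calls were 34.1% higher here and 13.6% higher with total counts alone. The interaction called 0 genes, 606 with DESeq2 and 0 to 712 with a library left out.

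Signs turned as follows, and the cause was not tested. Pmp22 in axonal RNA was 0.035 with limma voom. S100b, axonal over somatic, was 0.16 with DESeq2's size factors in edgeR, 0.18 with DESeq2 and 2.17 in the shControl libraries alone, and Fabp7 was 0.24 in the shPum2 libraries alone. With a library left out, somatic log2 differences lay between -0.60 and 1.34 for Apoe, -0.44 and 0.11 for Mbp, -0.073 and 2.47 for Sox10, -0.71 and 1.33 for Erbb3, and -1.56 and 0.045 for Sparcl1. Axonal differences lay between -6.99 and 4.31 for Apoe, -2.59 and 2.50 for Pmp22, and -2.68 and 2.89 for Sox10. Axonal over somatic changes lay between -0.015 and 3.503 for Apoe and -2.94 and 0.44 for S100b. Interactions lay between -7.42 and 3.53 for Apoe, -2.80 and 1.98 for Pmp22, -3.81 and 1.94 for Sox10, -0.58 and 6.53 for Erbb3, and -0.072 and 2.77 for Sparcl1.

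The labels do not say what a replicate number marks. Deviations of same-numbered libraries correlated across genes at r = 0.747 between the somatic groups and 0.111 between the axonal groups. With the replicate number as a block, 0 members were called in somatic RNA, 0 in axonal RNA, 3 in axonal over somatic RNA and 0 in the interaction, 1, 0, 4475 and 0 genes were called in these comparisons, and Sox10 in axonal RNA turned to 0.025. At an unadjusted p below 0.05 the block gave 3 of 8 members and 705 of 12348 genes in somatic RNA (edgeR), against 0 and 74 without it. These were Pmp22, Sox10 and Sparcl1, at log2 differences of 0.48, 1.10 and -0.71, each with an adjusted p of 0.838 (edgeR, Benjamini-Hochberg). In the interaction it gave 1 member, S100b, and 614 genes, against 0 and 964.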
